A study of Homo sapiens with 6 samples.

Results

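The genes of MHC class I and class II antigen presentation were followed in Kasumi-1 cells incubated with I3. The group is a list of 35 symbols, which were matched to the Ensembl identifiers of the deposited table of 29810 genes without the use of any expression value. Values of 32 members were read from the table, and HLA-F, HLA-G and IFI30 were not analysed here. Of these 32 genes, 21 had a mean of at least 0.5 FPKM over the libraries and entered the test, and 11 lay below that minimum. FPKM stands for fragments divided by exon length and by the counted fragments of the library. The length is that of all annotated exons, so genes with long extra isoforms are understated. Folds between genes given below are therefore approximate.

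Class I molecules carry peptides made inside the cell to CD8 T cells. The proteasome cuts proteins, TAP carries the peptides into the endoplasmic reticulum, aminopeptidases trim them, and chaperones load them onto a heavy chain paired with beta-2 microglobulin. Class II molecules carry peptides from the endosome to CD4 T cells, with the invariant chain CD74 as a placeholder until HLA-DM exchanges it for peptide. NLRC5 and CIITA are the transactivators of the class I and class II genes, and both work on promoters bound by the RFX complex. Leukemic blasts of myeloid origin are known to vary widely in how much class II they make, and HDAC inhibitors have been studied as agents that can raise antigen presentation genes.

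The Kasumi-1 line comes from human AML with the RUNX1-RUNX1T1 fusion, and I3 is an HDAC inhibitor. Cells were incubated with 0.25 μM I3 or with the same amount of the solvent DMSO as control for 48 h, and both groups thus carry the fusion and the solvent. There were 3 control and 3 I3 libraries of polyadenylated RNA, numbered 1 to 3 in each group. A legend of the study gives a longer incubation than its methods and the sample labels, and the title of the deposited table names the compound I13 in place of I3. The labels do not say that the numbered libraries came from separate cultures, so the p-values measure only the spread between these libraries, which may be technical. All cells were of 1 line, and RNA from a whole culture cannot tell fewer expressing cells apart from less RNA per cell.

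The depth was 17500320 to 17798678 counted reads in control and 17794813 to 18193373 in I3 libraries. KIT, CD34, MPO, CD33, RUNX1T1 and PTPRC, the markers of the line and of myeloid progenitors, were present in all 6 libraries, with MPO at 7740 to 8612 FPKM. The summed level of T cell, B cell, erythroid and fibroblast markers was at most 2.13 FPKM in any library, and B cell markers, the highest of these lists, stood at 1.00 to 1.29 FPKM in control and 1.09 to 2.13 FPKM in I3 libraries. Of the dendritic cell list (3.85 to 4.84 FPKM) nearly all was FLT3, which myeloid blasts also make, and of the epithelial list (28.2 to 31.6 FPKM) nearly all was EPCAM, while KRT8 was at 0 in 5 libraries and at 0.0327 FPKM in I3 2. The deviation of genes from their mean followed the GC content of their transcripts to a different degree in each library, with a rank correlation over 12939 genes of -0.313, 0.446 and 0.337 in control 1, 2 and 3 and -0.232, 0.262 and -0.446 in I3 1, 2 and 3.

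No antigen presentation gene was upregulated or downregulated by I3 at the thresholds of the study, an adjusted p under 0.05 and a log2 fold change of 0.58 or more in either direction. In limma with Benjamini-Hochberg adjustment over 12960 genes, 0 of the 21 tested members were called higher and 0 lower, where 0% of all tested genes were called higher and 0% lower. The study, which used DESeq, reported genes in both directions at these thresholds. The count of 0 here is therefore not comparable with its lists. At an unadjusted p under 0.05 the members also gave 0 higher and 0 lower, beside 2.08% of all tested genes higher and 2.85% lower. None of the 21 members had groups without overlap (0 higher and 0 lower), beside 5.06% of all tested genes with every I3 library above every control library and 4.64% with the reverse. limma's voom on reads rebuilt from the FPKM values likewise gave 0 members at the adjusted p and 0 at the unadjusted p.

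The log2 fold changes of the tested members, taken on log2(FPKM + 0.5) as I3 minus control, ran from -0.10 for RFXANK to 0.09 for ERAP2. Their median was 0.017, that of all tested genes was 0.011, and 12 members had a positive and 9 a negative value. On this scale changes of low genes are understated. For 20 of the 21 members the 95% interval of the fold change lay inside a range of 0.58 in either direction. Because of the 0.5 added to each value, an interval inside that range does not exclude a fold change of 0.58 in FPKM itself for genes near the minimum such as TAP1 and TAP2. HLA-B was the exception, with an interval of -0.58 to 0.72. With the GC trend of each library removed, the fold changes of the tested members ran from -0.17 for RFXAP to 0.10 for HLA-B. The smallest unadjusted p was 0.282, for RFXANK, and the adjusted p of every tested member was 0.998 or more in limma.

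**Figure D1:**
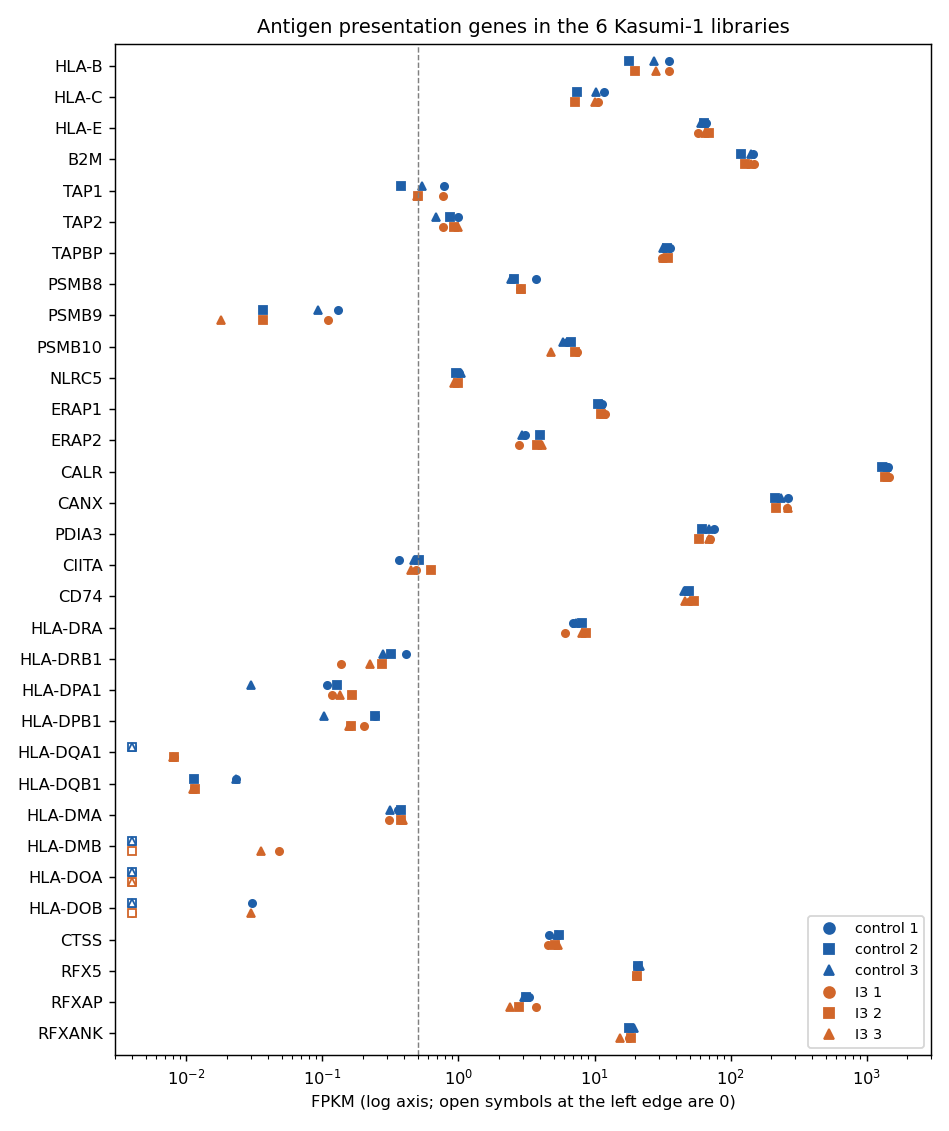
Level of the 32 members on a log axis of FPKM, with 1 symbol for each control (blue) and I3 (orange) library, a dashed line at the minimum of 0.5 FPKM and open symbols at the left edge for a value of 0. CALR is highest at 1288 to 1462 FPKM, the class I chains lie between 7.195 and 149 FPKM, and every class II chain but HLA-DRA below 0.5 FPKM, with both colours mixed at almost every gene.

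**Figure D2:**
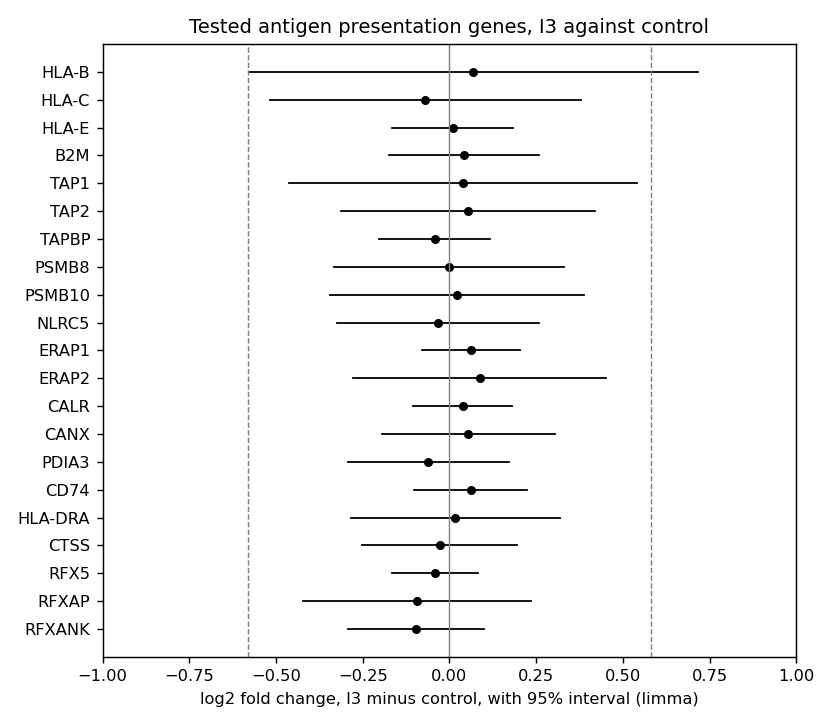
log2 fold change of I3 against control for the 21 tested members, with the 95% interval from limma, a solid line at 0 and dashed lines at 0.58 in either direction. All intervals cross 0, and that of HLA-B reaches past the dashed line at 0.58.

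The heavy chains of class I were expressed in the order HLA-E, HLA-B and HLA-C in each of the 6 libraries. HLA-B (ENSG00000234745), a classical heavy chain that presents peptides to CD8 T cells, lies on the minus strand of GRCh38 at chr6:31269491-31357188 as annotated. It had 35.1, 17.9 and 27.5 FPKM in control 1, 2 and 3 and 35.5, 19.8 and 28.5 FPKM in I3 1, 2 and 3. Libraries 1 were highest and libraries 2 lowest in both groups, and the groups overlapped almost completely. The means were 26.8 ± 8.60 FPKM in control and 27.9 ± 7.86 FPKM in cells incubated with I3 (SD, n = 3 each). The log2 fold change of 0.07 (SE 0.276, adjusted p = 0.998 in limma) was smaller than the spread between libraries.

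The spread of HLA-B was wide for its level. Its SD within groups was 0.449 on the log2 scale, above that of 99.6% of the 2469 tested genes within a factor of 2 of its mean FPKM. Reads do not limit the value, since 4333 control and 4586 I3 reads put their depth-corrected ratio at 1.04 with a 95% exact binomial interval of 0.999 to 1.09, which covers counting error only. The sign of the fold change rested on single libraries. Without control 2 it was -0.19, without I3 1 it was -0.12, and without I3 2 it rose to 0.29.

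HLA-C (ENSG00000204525, chr6:31268749-31272130), the other classical heavy chain analysed, had 11.7, 7.42 and 10.2 FPKM in control libraries and 10.6, 7.195 and 10.02 FPKM in I3 libraries. Control 2 and I3 2 again stood lowest, well apart from the other 4 libraries, and the groups overlapped. The log2 fold change was -0.07 (SE 0.191, 95% interval -0.52 to 0.38), and it turned to 0.07 without control 1 and to 0.09 without I3 2. The SD within groups of 0.303 was above that of 97.3% of 4629 genes of like level. The annotated exons of HLA-B and HLA-C share 35 bases on the same strand, and both genes have close paralogs in the locus, so the split of reads between class I genes is uncertain.

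B2M (ENSG00000166710, chr15:44711487-44718877), the light chain shared by all class I molecules, had 147, 120 and 140.4 FPKM in control 1, 2 and 3. In I3 1, 2 and 3 it had 149, 128 and 142 FPKM. The 6 libraries stood in the same order for B2M as for HLA-B, although the genes lie on different chromosomes, and libraries 2 were again the lowest of each group. Group means were 136 ± 14.0 FPKM and 139.7 ± 11.2 FPKM (SD, n = 3 each), with a log2 fold change of 0.04 (SE 0.0922, 95% interval -0.17 to 0.26). With the GC trend of each library removed the fold change was -0.015.

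HLA-E (ENSG00000204592, chr6:30489467-30494205), a nonclassical heavy chain that holds leader peptides of other class I chains and is read by NKG2A receptors of NK cells, did not share that pattern. Its values were 65.5, 63.3 and 61.1 FPKM in control libraries and 57.6, 68.9 and 65.2 FPKM in I3 libraries, so I3 2 was here the highest of its group. The log2 fold change was 0.0098 (95% interval -0.16 to 0.18), and the ratio of HLA-E to HLA-B moved from 1.62 in I3 1 to 3.53 in control 2. Its level was 5.44 to 9.58 times that of HLA-C.

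**Figure D3:**
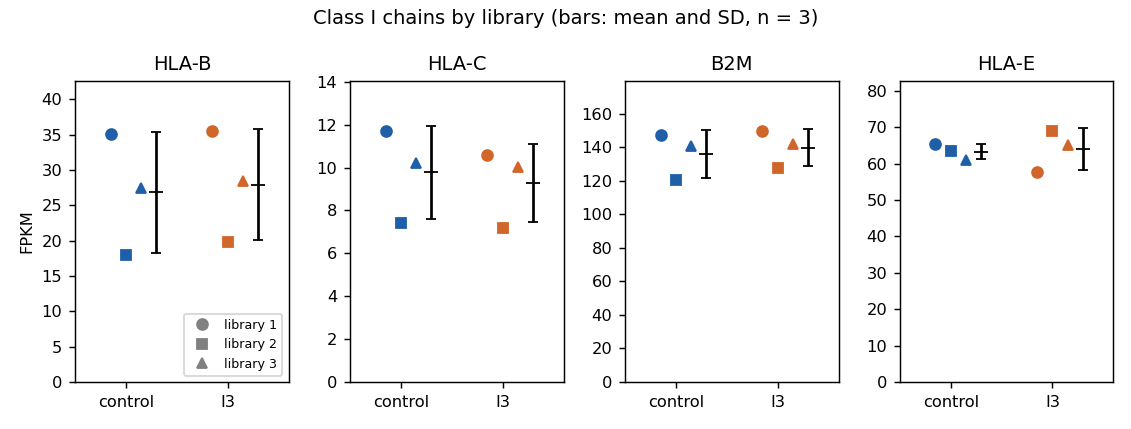
FPKM of HLA-B, HLA-C, B2M and HLA-E (linear axes from 0), with circles, squares and triangles for libraries 1, 2 and 3 of control (blue) and I3 (orange) and black bars for mean and SD (n = 3). The squares, libraries 2, are lowest in both groups for HLA-B, HLA-C and B2M, and not for HLA-E.

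In all, libraries 2 were the lowest of both groups for 7 of the 21 tested members, HLA-B, HLA-C, B2M, ERAP1, CALR, CANX and PDIA3, beside 17.4% of all tested genes. Counting by this pattern was chosen after the values of HLA-B had been seen. Control 2 and I3 2 both had a positive rank correlation with GC content, and so did control 3. The median transcript GC content was 59.5% for HLA-B, 61.4% for HLA-C, 64.7% for HLA-E and 40.5% for B2M, and the part of GC content in the pattern was not tested. The summed FPKM of the 3 heavy chains was 99.95 ± 11.8 in control and 101 ± 4.48 after I3 (SD, n = 3 each), and B2M stood at 1.31 to 1.44 times that sum in every library.

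For the class I chains HLA-B, HLA-C and B2M, the 250 bases before their RefSeq starts are shown (GRCh38.p14, 5′ to 3′ on the strand of the gene). The part of these sequences in the pattern of the libraries was not tested. Capitals mark the CCAAT box, written CCAAT or, on the other strand, ATTGG, and the core of an interferon response element, GAAANNGAA on either strand. The windows are chr6:31357180-31357429 (minus strand), chr6:31272093-31272342 (minus strand) and chr15:44711267-44711516 (plus strand). They are reference sequence and may differ from the alleles of Kasumi-1, and GENCODE also annotates transcripts that start inside or before some of the windows shown here.
HLA-B: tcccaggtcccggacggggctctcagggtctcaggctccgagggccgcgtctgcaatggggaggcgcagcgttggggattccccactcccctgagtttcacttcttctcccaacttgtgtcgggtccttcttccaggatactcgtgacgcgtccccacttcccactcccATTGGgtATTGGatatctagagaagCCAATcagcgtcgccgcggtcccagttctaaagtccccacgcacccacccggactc
HLA-C: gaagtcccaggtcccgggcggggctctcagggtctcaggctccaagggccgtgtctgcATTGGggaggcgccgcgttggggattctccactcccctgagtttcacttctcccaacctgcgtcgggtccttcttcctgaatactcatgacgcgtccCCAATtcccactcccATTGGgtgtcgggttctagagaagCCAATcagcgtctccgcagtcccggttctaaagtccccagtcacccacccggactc
B2M: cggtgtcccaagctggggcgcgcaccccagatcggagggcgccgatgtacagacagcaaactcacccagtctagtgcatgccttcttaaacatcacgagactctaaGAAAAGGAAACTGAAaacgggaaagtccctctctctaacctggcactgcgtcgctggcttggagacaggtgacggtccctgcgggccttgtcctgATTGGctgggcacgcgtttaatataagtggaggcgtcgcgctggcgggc
The HLA-B and HLA-C windows both hold a CCAAT box 56 to 52 bases before the start, and B2M holds one 49 to 45 bases before it, the zone in which NF-Y is known to bind in MHC promoters. The B2M window also holds 2 overlapping interferon response cores, between 144 and 130 bases before the start, and neither heavy chain window matches those letters.

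RefSeq windows were matched for 29 of the 35 members. A CCAAT box was found in 20 of them, beside 33% of 27305 promoters of the same length, and the interferon response core in 9, beside 7.06%. The half-site of the cAMP response element, TGACG on either strand, was found in 11 members, among them HLA-B, HLA-C and B2M, beside 21.7% of all promoters. The gamma-activated site TTCNNNGAA was found in HLA-DQA1 alone of the 29 members, beside 6.78%. These matches are descriptions of the letters in the windows, and the list was not tested for them.

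The genes of peptide transport split into a low and a high set. TAP1 (ENSG00000168394, chr6:32845209-32853978), 1 of the 2 chains of the peptide transporter, had 0.779, 0.380 and 0.537 FPKM in control and 0.772, 0.503 and 0.492 FPKM in I3 libraries. TAP2 (chr6:32821833-32838780), the other chain, had 0.992, 0.870 and 0.689 FPKM in control and 0.773, 0.932 and 0.989 FPKM in I3 libraries. Both groups overlapped for each gene, and the log2 fold changes were 0.04 (95% interval -0.46 to 0.54) and 0.05 (-0.31 to 0.42). TAPBP, or tapasin, which bridges the transporter and the heavy chain, was 40.8 to 89.2 times higher than TAP1, at 35.8, 33.9 and 31.7 FPKM in control and 31.5, 35.0 and 32.0 FPKM after I3.

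The precision of TAP1 was limited by depth, with about 33 to 66 reads a library. For TAP2, 32.3% of the annotated exon bases are shared on the same strand with the gene AL669918.1, and how such reads were counted was not stated by the sources used here. Without control 2 the TAP1 fold change was -0.09 and without control 1 it was 0.18. The tapasin fold change was -0.04 (95% interval -0.20 to 0.12) and was 0.018 with the GC trend removed.

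The chaperones of class I folding were among the most abundant transcripts of these cells. CALR, the calreticulin of the loading complex, had 1429, 1288 and 1416 FPKM in control and 1462, 1359 and 1419 FPKM in I3 libraries, and only 16 genes of the table had a higher mean. CANX, the calnexin that holds new heavy chains, had 264.6, 213 and 237 FPKM in control and 260.1, 215 and 266 FPKM after I3. PDIA3, the oxidoreductase ERp57 that works beside tapasin, had 75.7, 62.0 and 69.3 FPKM in control and 70.9, 58.4 and 69.1 FPKM after I3. For all 3 genes the groups overlapped and libraries 2 were lowest. The log2 fold changes were 0.04 (95% interval -0.10 to 0.18), 0.05 (-0.20 to 0.30) and -0.06 (-0.29 to 0.17).

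The trimming aminopeptidases did not pass the test either. ERAP1, which cuts peptides to class I length, had 11.4, 10.6 and 11.1 FPKM in control and 11.9, 11.1 and 11.5 FPKM in I3 libraries. ERAP2, its partner, had 3.07, 3.94 and 2.95 FPKM in control and 2.80, 3.79 and 4.14 FPKM in I3 libraries. The ERAP1 values were close together, and the lowest was in control and the highest in I3, but the groups overlapped. The ERAP2 groups overlapped over nearly their whole range. The log2 fold change of ERAP1 was 0.06 (SE 0.0603, 95% interval -0.08 to 0.20), and that of ERAP2, the highest among the tested members, was 0.09 (SE 0.155, 95% interval -0.28 to 0.45).

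All 3 immunoproteasome subunits, which replace the constitutive catalytic subunits of the proteasome in cells exposed to interferon, were far below their counterparts. PSMB8 had 3.70, 2.55 and 2.45 FPKM in control and 2.83, 2.86 and 2.88 FPKM after I3. The I3 libraries were nearly equal and lay inside the control range, where control 1 stood apart from control 2 and 3. The constitutive counterpart PSMB5 was 14.4 to 27.6 times higher than PSMB8 in the same library.

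PSMB10 had 6.23, 6.67 and 5.89 FPKM in control and 7.45, 7.19 and 4.78 FPKM in I3 libraries. I3 1 and I3 2 lay above all control libraries and I3 3 lay below them. Without I3 3 the log2 fold change rose from 0.02 (adjusted p = 0.999 in limma with all libraries) to 0.21, with an unadjusted p of 0.0436, so the value for this gene depends on that library. PSMB10 also shares 34.8% of its annotated exon bases on the same strand with AC040162.1, which makes its read count uncertain. Its counterpart PSMB7 was 12.3 to 18.2 times higher.

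PSMB9 (ENSG00000240065) was nearly silent, with 7, 2 and 5 control reads and 6, 2 and 1 I3 reads for libraries 1, 2 and 3. In FPKM these are 0.129, 0.0366 and 0.0930 in control and 0.110, 0.0366 and 0.0179 after I3, below the minimum for the test. The ratio of 9 I3 to 14 control reads, corrected for depth, was 0.633 with a 95% exact binomial interval of 0.242 to 1.57, and a difference inside that interval was not detectable at this depth. PSMB6, the subunit it replaces, was 226 to 1517 times higher. The width of that range reflects the few PSMB9 reads, and its upper end rests on the 1 read of I3 3.

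**Figure D4:**
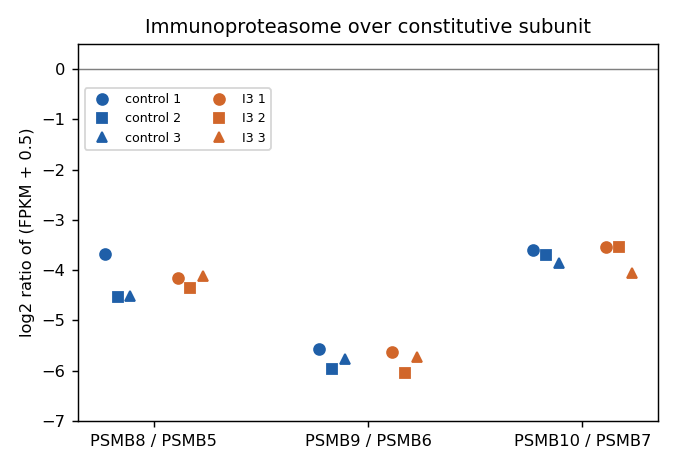
log2 ratio of (FPKM + 0.5) of each immunoproteasome subunit to its constitutive counterpart, 1 symbol for each library. All ratios lie between -6.05 and -3.53, far below equal levels at 0, and control and I3 overlap for each pair. For PSMB9 the added 0.5 exceeds every value, so its ratio understates the gap to PSMB6 and mostly follows PSMB6.

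On the log2 scale with a pseudocount of 0.5, the ratio of PSMB8 to PSMB5 was -4.25 ± 0.490 in control and -4.21 ± 0.127 after I3. That of PSMB9 to PSMB6 was -5.76 ± 0.200 and -5.80 ± 0.218, and that of PSMB10 to PSMB7 was -3.72 ± 0.127 and -3.71 ± 0.296 (SD, n = 3 each). The differences between the groups were smaller than the SD for each pair. For PSMB9, at most 0.129 FPKM in any library, the added 0.5 outweighs the gene's own value. Its ratio and SD therefore mostly follow PSMB6 and cannot show whether PSMB9 changed. The summed FPKM of the 3 subunits was 9.25 ± 0.813 in control and 9.38 ± 1.49 after I3.

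TAP1 and PSMB9 start back to back, and both were low. The 250 bases before each RefSeq start are shown with the same capitals as above (chr6:32853705-32853954, minus strand, and chr6:32853942-32854191, plus strand). The part of these sequences in the low levels was not tested.
TAP1: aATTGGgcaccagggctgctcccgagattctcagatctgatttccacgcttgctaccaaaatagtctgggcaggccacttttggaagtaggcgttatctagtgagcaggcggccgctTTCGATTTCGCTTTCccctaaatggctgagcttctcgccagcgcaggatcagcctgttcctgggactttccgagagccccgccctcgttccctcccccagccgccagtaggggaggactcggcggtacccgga
PSMB9: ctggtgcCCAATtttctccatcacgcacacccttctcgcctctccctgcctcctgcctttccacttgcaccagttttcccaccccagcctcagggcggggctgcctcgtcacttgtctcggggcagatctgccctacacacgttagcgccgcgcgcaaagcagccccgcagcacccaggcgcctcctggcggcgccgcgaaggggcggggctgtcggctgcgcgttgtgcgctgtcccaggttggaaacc
The windows share 13 bases, which hold the only CCAAT box of either window, read here once from each strand. The TAP1 window holds 2 overlapping interferon response cores between 133 and 119 bases before its start, and none was matched in the PSMB9 window.

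Among the class II chains only HLA-DRA was expressed at a level that could be tested. HLA-DRA (ENSG00000204287, chr6:32439842-32445046), the alpha chain of HLA-DR, which hardly varies between people, had 6.90, 8.03 and 7.37 FPKM in control and 6.09, 8.65 and 8.03 FPKM in I3 libraries. I3 libraries took both the lowest and the highest value, and the log2 fold change was 0.02 (SE 0.128, 95% interval -0.28 to 0.32).

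HLA-DRB1 (ENSG00000196126, chr6:32578769-32589848), the beta chain that pairs with HLA-DRA, was 16.6 to 44.5 times lower than its partner. The upper end of that range rests on the 3 HLA-DRB1 reads of I3 1. HLA-DRB1 was counted 9, 7 and 6 times in control libraries and 3, 6 and 5 times in I3 libraries, or 0.415, 0.320 and 0.279 FPKM against 0.137, 0.274 and 0.224 FPKM. Every control value in FPKM was above every I3 value, although control 3 and I3 2 both rest on 6 reads. The exact permutation p was 0.1, the smallest that 3 against 3 libraries can give (two-sided), and the fit without a minimum gave a log2 fold change of -0.24 (unadjusted p = 0.106, adjusted p = 0.898). The depth-corrected ratio of the reads was 0.626, with a counting interval of 0.296 to 1.28 that includes equal levels.

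Beta chain genes of HLA-DR are highly polymorphic and near-identical copies lie beside HLA-DRB1, so reads of an allele unlike the reference can be lost or assigned elsewhere. The paralog HLA-DRB5, looked at after these values were seen, had 3, 2 and 0 reads in control and 0 in each I3 library. The part of read assignment in the gap between HLA-DRA and HLA-DRB1 was not tested.

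The chains of HLA-DP and HLA-DQ were at or near the limit of detection. HLA-DPA1 was counted 11, 13 and 3 times in control and 12, 17 and 14 times after I3, with a read ratio of 1.57 (95% interval 0.947 to 2.64). HLA-DPB1 was counted 12, 12 and 5 times in control and 10, 8 and 8 times after I3, with a ratio of 0.882 (0.499 to 1.55). Control 3 was the lowest library for both HLA-DP chains, whose exons overlap by 96 bases on opposite strands. HLA-DQB1 had 2, 1 and 2 reads in control and 1 read in each I3 library. HLA-DQA1 had no read in control and 1 read in each I3 library, which keeps the groups apart, with an exact permutation p of 0.1, but both groups are at or under a floor of 3 reads, and no fold is given. The summed FPKM of the 6 class II chains was 8.07 ± 0.573 in control and 8.13 ± 1.40 after I3 (SD, n = 3 each), most of it HLA-DRA.

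CD74 (ENSG00000019582, chr5:150401637-150412929), the invariant chain that occupies the class II groove, was 5.74 to 8.22 times higher than HLA-DRA. It had 48.7, 49.1 and 45.8 FPKM in control and 50.1, 53.9 and 46.1 FPKM in I3 libraries. I3 1 and I3 2 were above all control libraries and I3 3 was within their range. The log2 fold change was 0.06 (SE 0.069, 95% interval -0.10 to 0.22, adjusted p = 0.998 in limma), and it was 0.0062 without I3 2. The window before its RefSeq start (chr5:150412911-150413160, minus strand) is shown as the class II pathway promoter with the highest transcript level.
CD74: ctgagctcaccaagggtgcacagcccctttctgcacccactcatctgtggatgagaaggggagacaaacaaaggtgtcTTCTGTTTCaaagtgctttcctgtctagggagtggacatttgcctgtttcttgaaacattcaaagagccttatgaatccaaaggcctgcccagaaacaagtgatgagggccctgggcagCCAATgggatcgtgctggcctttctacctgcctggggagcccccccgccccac
It holds a CCAAT box 53 to 49 bases before the start and an interferon response core, on the other strand, 172 to 164 bases before it.

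CTSS, the cathepsin that cuts CD74 down to the peptide left in the groove, had 4.62, 5.51 and 5.31 FPKM in control and 4.55, 5.13 and 5.43 FPKM in I3 libraries. The groups overlapped, with a log2 fold change of -0.03 (95% interval -0.25 to 0.20). HLA-DMA, a chain of the peptide exchanger HLA-DM, was counted 16, 17 and 14 times in control and 14, 17 and 18 times after I3, with a ratio of 1.03 (95% interval 0.674 to 1.56). Its partner HLA-DMB was counted 0 times in each control library and 4, 0 and 3 times in I3 1, 2 and 3.

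Setting the control group of HLA-DMB at a floor of 3 reads would give a depth-corrected ratio of 2.30. That value is no lower bound, as it rests on 7 reads in all. I3 2 had no read, and the groups overlap at 0. The exact permutation p was 0.4. The limma fit without a minimum gave a log2 fold change of 0.08 (unadjusted p = 0.15). It was 0.12 without I3 2, but that leaves out the only I3 library with no read, so no weight is put on it. HLA-DOA, a chain of the modulator HLA-DO, was at 0 in all 6 libraries, where 3 reads would have been worth 0.0411 to 0.0427 FPKM. HLA-DOB, its partner, had 1 read in control 1 and 1 read in I3 3.

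None of the regulators of these genes passed the test. NLRC5 (ENSG00000140853, chr16:56989485-57083531), the class I transactivator, had 1.00, 0.962 and 1.04 FPKM in control and 0.979, 0.994 and 0.932 FPKM in I3 libraries. Its SD within groups of 0.0355 on the log2 scale was above that of only 0.51% of 3527 genes of like level, and the log2 fold change was -0.03 (95% interval -0.32 to 0.26). CIITA (ENSG00000179583, chr16:10866222-10943021), the class II transactivator, had 0.363, 0.511 and 0.473 FPKM in control and 0.484, 0.628 and 0.447 FPKM after I3. Its mean of 0.484 FPKM over the libraries lay just below the minimum, and the groups overlapped. The fit without a minimum gave 0.10 (SE 0.143, 95% interval -0.25 to 0.45, adjusted p = 0.93). CIITA had 494 control and 580 I3 reads, approximate for this gene, over 20757 exon bases. Their depth-corrected ratio was 1.16 with a 95% exact binomial interval of 1.02 to 1.31, which covers counting error only. The 0.5 added to each value shrinks the fold change at this level, and limma's voom on the rebuilt reads gave 0.21 (unadjusted p = 0.247).

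The RFX complex binds the X box of class I and class II promoters and has 3 subunits. RFX5, its DNA-binding subunit, had 20.4, 20.9 and 21.8 FPKM in control and 20.05, 20.5 and 20.7 FPKM in I3 libraries. RFXAP had 3.29, 3.12 and 3.02 FPKM in control and 3.70, 2.78 and 2.38 FPKM in I3 libraries. RFXANK had 18.0, 17.8 and 19.5 FPKM in control and 17.9, 18.5 and 15.3 FPKM in I3 libraries. The RFX5 groups overlapped within a narrow range. The I3 libraries spread more widely than the control libraries for RFXAP and RFXANK, with I3 3 the lowest for both. The log2 fold changes were -0.04 (95% interval -0.17 to 0.08), -0.09 (-0.42 to 0.23) and -0.10 (-0.29 to 0.10), and without I3 3 those of RFXAP and RFXANK were 0.03 and -0.02.

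A further 41 genes of the pathway, listed beside the members, gave no call either. Values were read for 39 of them and 33 were tested, of which 0 were called at the adjusted p, 1 was higher and 0 were lower at an unadjusted p under 0.05, beside 2.08% of all tested genes higher and 2.85% lower. Their median log2 fold change was -0.014. The gene at the unadjusted p was LNPEP, the aminopeptidase IRAP of cross-presenting endosomes, with 7.002, 6.11 and 6.52 FPKM in control and 7.50, 7.09 and 8.80 FPKM in I3 libraries. All I3 values were above all control values, as for 5.06% of all tested genes, with a log2 fold change of 0.23 (SE 0.0948, unadjusted p = 0.0427, adjusted p = 0.998 in limma) and an exact permutation p of 0.1. The LNPEP fold change fell to 0.15 without I3 3 and to 0.16 with the GC trend removed. Among genes of interferon input, IRF1 and the receptor chain IFNGR2 had log2 fold changes of -0.04 and -0.34, with an adjusted p of 0.998 each in limma. That of IFNGR2 was -0.15 without I3 3.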

How the data were processed

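mRNA-seq was available for 3 control and 3 I3 libraries of Kasumi-1 cells. Libraries were made with a stranded kit for polyadenylated RNA. The authors deposited 1 FPKM value for each gene and library, and no other unit was used. The submitters' processing notes name Trimmomatic, HISAT2, Cufflinks and HTSeq and the build hg38. Their annotation and any use of strand in counting were not stated by the sources used here. The authors tested differential expression with DESeq, which needs counts, so limma was used here in its place. All 6 value columns were used.

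Identifiers were matched to GENCODE release 29 (29703 of 29810). FPKM times exon length gave whole reads in all libraries, within 0.1 read, for 95.8% of the 26519 genes above 0 with a length. Of the 32 members 28 were whole, and the reads of B2M, TAP1, PSMB8 and CIITA are approximate. FPKM divides by all annotated exon bases of a gene, so genes with long extra isoforms are understated. Replicate libraries were not copies of each other, with a chi-square per degree of freedom of 4.26 or more.

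Groups were compared with limma 3.58.1 (lmFit, eBayes with trend, two-sided, under R 4.3.3) on log2(FPKM + 0.5) for genes with a mean of at least 0.5 FPKM, without covariates. Benjamini-Hochberg adjustment was made over all tested genes. Members below the minimum were taken from the same fit without it. Exact permutation tests and exact binomial intervals came from scipy 1.17.1, tables from pandas 2.3.3 in Python 3.11.15 and plots from matplotlib 3.10.9. The procedure was tested on simulated data. Alternatives were other pseudocounts, minimums and scalings, no trend, a replicate block, a GC correction (lowess, span 0.3), voom on rebuilt reads and each library left out.

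The members and gene lists were chosen with earlier results of these data known. All members are named, and of the other pathway genes those past an unadjusted p of 0.05, those used in a ratio, and IRF1 and IFNGR2, which were added after their values were seen. Promoter windows are from RefSeq on GRCh38.p14.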

Additional observations from a re-analysis of the deposited data

How the results depend on the processing

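Of 543 recomputed fold changes of members over 19 settings, 494 kept their direction and none passed the adjusted threshold (smallest adjusted p 0.51, without control replicate 1), while 49 changed sign, in 19 of 31 members. Whether the replicate numbers pair the libraries is not known. The deviations of same-numbered libraries correlated at 0.063, 0.151 and -0.024, beside -0.172 to 0.101 for unlike numbers, which does not exclude pairing. With the number as a replicate block, 0 genes and 0 members were called and the median of the members was 0.0171, as without it. The block moved the unadjusted limma p of HLA-B from 0.81 to 0.219 and of PDIA3 from 0.559 to 0.216. That of HLA-E stayed at 0.899. Quantile normalization turned the median of the members to -0.0143, and single left-out libraries moved it between -0.0391 and 0.0428. Leaving out single libraries gave 0 to 1 genes called higher (1 without control 1), 0 to 2 lower (2 without I3 1, 1 without I3 2) and 0 to 1 members higher at the unadjusted p (PSMB10, without I3 3). The sign turned for HLA-E under median-of-ratios scaling (-0.0035), for TAP1 (-0.0248), CALR (-0.0203) and HLA-DMA (-0.0325) under quantile normalization, and for B2M (-0.0148), TAPBP (0.0177) and HLA-DRA (-0.0053) under the GC correction. The GC correction moved further tested members by about 1.5 times or more without a change of sign, HLA-B to 0.10, HLA-C to -0.022, HLA-E to 0.086, PSMB10 to 0.073, NLRC5 to -0.0075, ERAP1 to 0.023, ERAP2 to 0.037, CANX to 0.029, PDIA3 to -0.091, CD74 to 0.096, CTSS to -0.077, RFXAP to -0.17 and RFXANK to -0.056. PSMB8, at -0.0005, turned to 0.0021 and 0.0029 with pseudocounts of 0.1 and 0.01, 0.0114 under TPM, 0.0087 under the GC correction and 0.0032 under voom. With single libraries left out, the fold changes that changed sign ran for HLA-B from -0.19 to 0.29, HLA-C from -0.25 to 0.094, HLA-E from -0.046 to 0.083, B2M from -0.043 to 0.11, TAP1 from -0.090 to 0.18, TAP2 from -0.036 to 0.13, PSMB8 from -0.093 to 0.16, PSMB10 from -0.085 to 0.21, ERAP2 from -0.014 to 0.23, CALR from -0.010 to 0.066, CANX from -0.024 to 0.15, PDIA3 from -0.13 to 0.026, HLA-DRA from -0.078 to 0.16, HLA-DPB1 from -0.14 to 0.0099, HLA-DMA from -0.015 to 0.057, HLA-DOB from -0.028 to 0.028, CTSS from -0.097 to 0.037 and RFXAP from -0.24 to 0.027. TPM rescaling multiplied every level and gave sums of 355 and 361 for the class I heavy chains, 28.6 and 29.1 for the class II chains and 32.8 and 33.5 for the immunoproteasome, in control and I3. Pseudocounts of 0.1 and 1 moved the log2 ratio of PSMB8 to PSMB5 in I3 to -4.38 and -4.02, that of PSMB9 to PSMB6 in control to -7.43 and -4.89, and in I3 to -7.67 and -4.90. Minimums of 1 and 5 FPKM removed members, and voom was not fitted for members with a mean under 10 reads. The causes were not tested. Depth limits TAP1, PSMB9, the class II chains other than HLA-DRA, and the HLA-DM and HLA-DO genes.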
